A study of Mus musculus with 27 samples.

Results

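The genes for enzymes of extracellular matrix turnover and for their inhibitors were followed in C2C12, a mouse myoblast line that fuses into multinucleated myotubes. They were taken by symbol: every matrix metalloproteinase (Mmp), every ADAMTS protease, every ADAMTS-like gene (Adamtsl) and the tissue inhibitors of metalloproteinases (Timp1 to Timp4). That gave 51 of the 20446 genes in the count table, made up of 23 Mmp, 19 Adamts, 5 Adamtsl and 4 Timp genes. Myoblasts of this line were expanded in 10% FBS, plated at 50000 cells a well and differentiated in 2% horse serum near confluence. All cultures then received 50% horse serum for 2 h, a pulse used to set cellular clocks in step, and total RNA was sequenced every 6 h from 12 to 60 h. Each of the 9 times has 3 libraries (27 in all), no unpulsed culture was analysed here, and since the labels do not name them as separate cultures, p-values speak only of the spread between libraries. Every value is from whole wells of 1 cell line, in which fewer cells of a type and less RNA per cell cannot be told apart.

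Matrix metalloproteinases are zinc endopeptidases made as inactive precursors; some are secreted and others, such as Mmp14, are anchored in the membrane. TIMPs bind the active site of these enzymes, and Timp3 stays in the matrix and also inhibits several ADAM and ADAMTS proteases. ADAMTS enzymes are secreted proteases with thrombospondin repeats that trim procollagens, cut hyaluronan-binding proteoglycans such as versican, or act on microfibrils. ADAMTS-like proteins share the thrombospondin repeats but lack the catalytic domain. In muscle these genes are known for the matrix remodelling that goes with myoblast migration, fusion and repair.

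Libraries held 15.2 to 26.6 M counts (median 20.9 M). Values are given as CPM, read counts scaled to library size, in the order replicate 1, 2 and 3 at each time. For levels between genes the CPM were divided by the exon length in kilobases. Of the 51 genes, 34 had enough reads to be tested (12 Mmp, 14 Adamts, 5 Adamtsl and 3 Timp), and 29 had a mean of at least 1 CPM. A gene passed if 3 libraries held about 10 reads or more. Of the other 17, 10 had 3 to 101 reads over all 27 libraries and 7 had no read (Mmp1a, Mmp1b, Mmp7, Mmp20, Mmp21, Adamts13 and Adamts19). For these 7, a count of 0 allows up to 3 reads over all libraries, or 0.00522 CPM, for counting error only. Myotube markers were present in every library, with a summed level of 18096 to 21325 CPM. Smooth muscle markers, several of which myoblasts also express, summed to 2866 to 6554 CPM. The lists for blood and vessel cells were far lower, at 6.68 to 9.58 CPM summed for macrophages and neutrophils (8 of 12 markers under 0.1 CPM, S100a9 without a read) and 1.01 to 2.54 CPM for endothelium (5 of 8 under 0.1 CPM, Emcn without a read).

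By level per exon kilobase, Timp1 stood first at 956 CPM per kilobase, followed by Timp2 at 221, Mmp14 at 92.8, Timp3 at 77.7, Mmp2 at 63.6 and Adamts4 at 37.4. Mmp11 followed at 30.1, Adamtsl5 at 26.4 and Adamts14 at 23.5 CPM per kilobase. The ranges over libraries of Timp1 and Timp2 do not overlap, since the lowest Timp1 library, at 567 CPM over 888 exon bases, is above the highest of Timp2, at 1098 CPM over 3896 bases. Summed per kilobase, the 4 inhibitors stood at 1498 ± 72.9 CPM (SD, n = 3) at 12 h, 955 ± 40.7 at 24 h and 1409 ± 69.2 at 60 h. The 23 Mmp genes summed to 181 ± 16.8 CPM per kilobase at 12 h, 234 ± 15.4 at 30 h and 212 ± 11.6 at 60 h. Inhibitor message exceeded metalloproteinase message per kilobase at every time. The 19 Adamts genes summed to 117 ± 6.23 CPM per kilobase at 12 h and 150 ± 5.32 at 60 h. The 5 Adamtsl genes stood at 48.5 ± 6.14 and 57.3 ± 3.38.

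**Figure D1:**
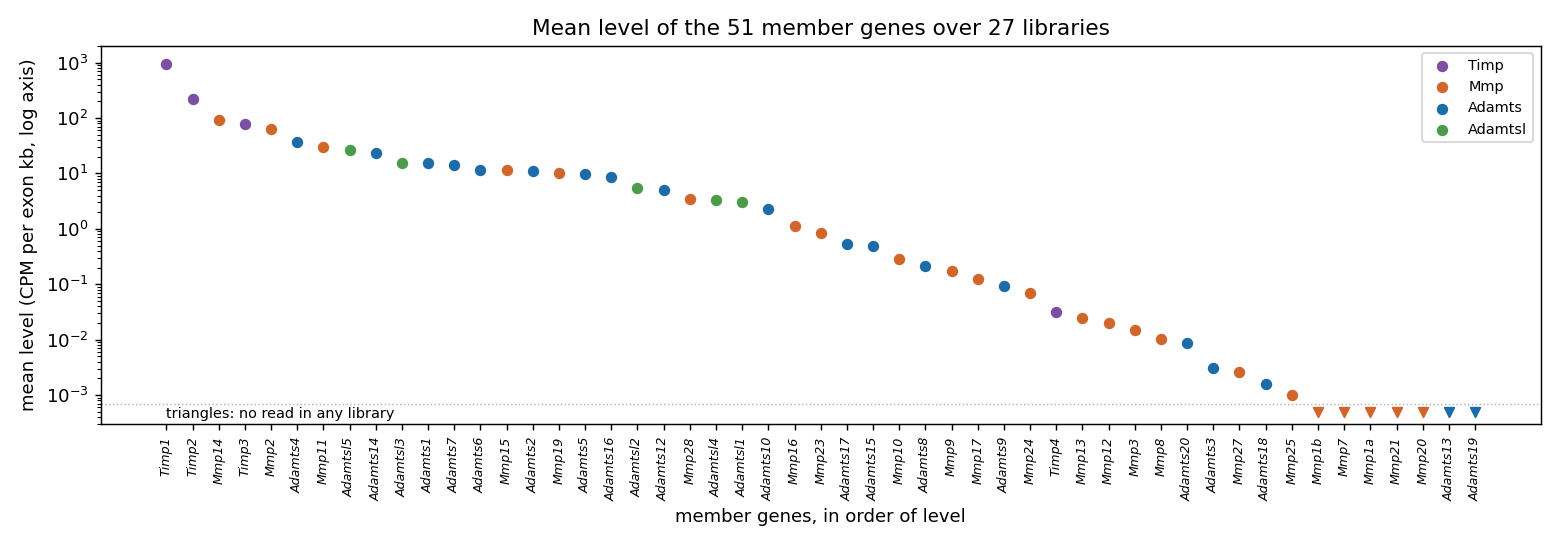
Mean level of the members over 27 libraries, in CPM per kilobase of exon on a log axis, coloured by family, with triangles for the 7 genes without a read. Timp1 stands first at 956 CPM per kilobase, and most genes of the chromosome 9 Mmp cluster stand at the low end.

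On chromosome 9, 10 Mmp genes lie side by side, at chr9:7272514-7699585 on mm10 (427 kb), in the order Mmp13, Mmp12, Mmp1b, Mmp3, Mmp1a, Mmp10, Mmp8, Mmp27, Mmp20 and Mmp7. These are the collagenases, stromelysins, matrilysin, macrophage elastase and enamelysin, several of them known for inducible transcription. Together they held 434 of 574569680 reads, 4 of the 10 had no read, and Mmp10 alone was tested. Mmp10, a stromelysin, ranged from 0.156 to 1.06 CPM and held 279 of those reads. Its log2 change of 0.96 ± 0.50 at 36 h against 12 h was not called (edgeR adjusted p 0.223) with all libraries, and was without replicate 3 of 36 h (adjusted p 0.0341). Mmp12 had 83 reads, Mmp13 had 37, Mmp3 and Mmp8 had 16 each and Mmp27 had 3. Of the 13 Mmp genes elsewhere in the genome, 11 were tested.

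The promoters of that cluster are shown because most of them hold a short motif that was not found in the other members' windows. The motif searched, TGANTCA, takes in TGACTCA and TGAGTCA, the usual forms bound by AP-1 (Fos and Jun family) factors. With any base in the middle it also takes TGAATCA and TGATTCA, which are not the usual form. It is its own reverse complement, so 1 search covers both strands. RefSeq windows (GRCm38.p6, 250 bases before to 50 after each start) were used for 36 of the 51 genes. Among the genes without a window here were Mmp2, Mmp9, Mmp19, Adamts4, Adamts5 and Adamts16, so their promoters were not searched. The motif was in 7 of 10 cluster windows (70%), in 0 of the 26 other member windows used, and in 2565 of all 32851 windows (7.81%). The Mmp20 match is TGAATCA, and the 7.81% likewise counts every middle base. The motif lay 35 to 95 bases before the start. The letters TATAAA, searched on both strands, were in 8 of the 10 cluster windows, in 3 of the other 26 (11.5%) and in 13.6% of all windows. Below are the 100 bases before the start of the 7 cluster genes with the motif, in capitals.
Mmp13 (chr9:7272414-7272513, plus strand): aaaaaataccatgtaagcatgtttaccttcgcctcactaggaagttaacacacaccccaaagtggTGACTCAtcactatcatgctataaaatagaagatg
Mmp1b (chr9:7388027-7388126, minus strand): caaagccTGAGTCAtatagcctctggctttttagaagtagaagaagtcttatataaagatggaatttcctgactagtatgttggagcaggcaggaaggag
Mmp3 (chr9:7445722-7445821, plus strand): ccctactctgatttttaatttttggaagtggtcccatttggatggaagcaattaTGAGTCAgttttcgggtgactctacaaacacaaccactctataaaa
Mmp1a (chr9:7464041-7464140, plus strand): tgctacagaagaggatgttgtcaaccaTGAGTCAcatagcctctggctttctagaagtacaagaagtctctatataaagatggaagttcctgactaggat
Mmp10 (chr9:7502242-7502341, plus strand): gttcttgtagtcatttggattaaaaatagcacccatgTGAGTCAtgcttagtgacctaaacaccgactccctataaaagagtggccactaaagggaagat
Mmp20 (chr9:7628131-7628230, plus strand): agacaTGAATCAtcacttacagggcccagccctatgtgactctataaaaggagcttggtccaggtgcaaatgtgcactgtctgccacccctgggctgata
Mmp7 (chr9:7691990-7692089, plus strand): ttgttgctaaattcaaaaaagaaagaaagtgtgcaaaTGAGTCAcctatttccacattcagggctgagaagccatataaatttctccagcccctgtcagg

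The 2 cluster genes shown next have no such match in the window, and neither do the 4 expressed genes after them, which stand for the TIMP, MMP and ADAMTS genes described further on.
Mmp8 (chr9:7558329-7558428, plus strand): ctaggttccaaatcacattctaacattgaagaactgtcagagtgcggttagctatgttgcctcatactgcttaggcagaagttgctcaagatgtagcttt
Mmp27 (chr9:7571296-7571395, plus strand): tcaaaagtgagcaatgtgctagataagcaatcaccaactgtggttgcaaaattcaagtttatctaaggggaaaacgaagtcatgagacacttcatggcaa
Timp1 (chrX:20870066-20870165, plus strand): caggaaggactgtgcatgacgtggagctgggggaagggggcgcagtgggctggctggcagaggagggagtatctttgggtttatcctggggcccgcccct
Mmp14 (chr14:54431498-54431597, plus strand): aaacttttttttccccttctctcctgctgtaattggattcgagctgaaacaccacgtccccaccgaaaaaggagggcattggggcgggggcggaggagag
Adamts1 (chr16:85803114-85803213, minus strand): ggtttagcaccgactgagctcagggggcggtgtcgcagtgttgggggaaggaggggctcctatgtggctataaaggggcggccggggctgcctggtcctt
Adamts12 (chr15:11064673-11064772, plus strand): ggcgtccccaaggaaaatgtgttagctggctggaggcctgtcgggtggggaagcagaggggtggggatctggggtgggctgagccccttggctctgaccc
Mmp12 has no match in its main window, while its other RefSeq start has one 44 bases before it. Mmp7, counted above for its main window, has none in the window of its other start. A match is a string of letters and does not show that a factor binds there. In these libraries the AP-1 genes themselves were read at means of 150 CPM for Jun, 173 for Junb, 159 for Jund and 136 for Fosl2. Means were lower for Fos (9.27), Atf3 (7.54), Fosl1 (5.4) and Fosb (1.02). Whether any of these factors acts on the cluster genes, which were read at or near 0, was not tested.

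Changes were tested with edgeR's quasi-likelihood test over all 12687 tested genes, and "called" means a Benjamini-Hochberg adjusted p under 0.05. Of the 34 tested members 18 were called for a change of any shape over the 9 times, against 18.5% of all tested genes. At 60 h against 12 h, 14 were higher (background 9.5%) and 2, Mmp9 and Mmp11, were lower (6.56%). At 36 h against 12 h, 13 were higher (9.3%) and 3 were lower (Timp1, Mmp9 and Mmp11; 6.75%). At 60 h against 36 h, Timp3 was the single member called higher (0.497%) and Adamts17 the single member called lower (0.363%). The first 2 of these contrasts share the 12 h libraries, and the last shares the 36 h and 60 h libraries with them. Along a straight line from 12 to 60 h, 9 members rose (10.7%) and 3 fell (Mmp9, Mmp11 and Adamts15; 8.72%). The median log2 change of the 34 at 60 h against 12 h was 0.32, beside -0.014 for all tested genes.

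Of the 18 members called for any change, 13 had their lowest mean at 12 h, where 40.6% of all called genes had theirs. The 12 h mean was the highest of the 9 for 3 others, Timp1, Mmp9 and Mmp11. Without the 12 h libraries 11 members were called for any change, and Adamts5, Adamts9, Adamts10, Adamts16, Mmp2, Mmp14 and Mmp23 no longer were (adjusted p 0.0607 to 0.712). That count was not made for all tested genes, so the loss is not shown to be a trait of the members. No earlier time and no unpulsed culture was measured, so how far 12 h stands from the state before the pulse was not tested.

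The inhibitors took separate courses: Timp3 rose 3.23-fold from 12 to 60 h, Timp1 was lower at 36 h than at 12 h, and Timp2 was not called in any contrast. Timp3 (chr10:86300372-86349506, plus strand) is the TIMP held in the matrix. Timp3 CPM were 293, 261 and 279 at 12 h, 418, 348 and 416 at 18 h and 427, 357 and 444 at 24 h. Timp3 then stood at 543, 464 and 579 at 30 h, 609, 598 and 672 at 36 h and 828, 740 and 862 at 42 h. Later Timp3 values were 850, 760 and 934 at 48 h, 1020, 761 and 934 at 54 h and 917, 833 and 941 at 60 h. The 3 libraries of 12 h were the lowest of all 27 and no 60 h library overlapped them. Its log2 change was 1.17 ± 0.11 (SE) at 36 h against 12 h and 1.69 ± 0.11 at 60 h against 12 h (edgeR adjusted p 5.31e-08 and 1.9e-10). Between 36 and 60 h it was 0.52 ± 0.11 (edgeR adjusted p 0.0223). That last call was lost without replicate 1 or 2 of 36 h or replicate 1 or 3 of 60 h (adjusted p 0.107 to 0.117). In GENCODE M21, 21.3% of Timp3 exon bases overlap the opposite-strand gene Syn3, which had a mean of 0.297 CPM.

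Timp1 (chrX:20870166-20874735, plus strand), a secreted inhibitor induced by growth factors and serum, ran another course. Timp1 CPM were 1184, 1173 and 1016 at 12 h, 577, 690 and 705 at 18 h and 567, 611 and 579 at 24 h. Timp1 then stood at 643, 744 and 722 at 30 h, 597, 800 and 749 at 36 h and 981, 979 and 858 at 42 h. Later Timp1 values were 841, 1097 and 869 at 48 h, 933, 1145 and 919 at 54 h and 927, 1076 and 933 at 60 h. All 12 h libraries lay above all 18, 24, 30 and 36 h libraries, and from 48 h on the library numbered 2 lay within the 12 h range, at 1097, 1145 and 1076 CPM. At 36 h Timp1 was lower than at 12 h by a log2 change of -0.65 ± 0.12 (edgeR adjusted p 0.000314). Later values gave -0.20 ± 0.12 at 60 h against 12 h and 0.45 ± 0.12 at 60 h against 36 h (edgeR adjusted p 0.303 and 0.0743). The second of these was called without replicate 2 of 48 h or of 54 h (adjusted p 0.0382 and 0.0454) and by DESeq2 (adjusted p 0.0208). Along the line Timp1 had 0.33 ± 0.17 with all libraries (edgeR adjusted p 0.198), and without those of 12 h it rose by 0.99 (adjusted p 1.04e-05).

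Timp2 (chr11:118301069-118355740, minus strand) binds the membrane protease Mmp14 and takes part in the activation of Mmp2. Timp2 CPM were 790, 561 and 964 at 12 h, 914, 602 and 1041 at 18 h and 1080, 692 and 1098 at 24 h. Timp2 then stood at 1008, 705 and 1098 at 30 h, 845, 670 and 1083 at 36 h and 972, 695 and 930 at 42 h. Later Timp2 values were 988, 636 and 988 at 48 h, 1008, 636 and 941 at 54 h and 768, 671 and 858 at 60 h. The library numbered 2 was the lowest at all 9 times, at 561 to 705 CPM, and the libraries numbered 1 and 3 lay at 768 to 1098 CPM with no overlap. Timp2 was not called for any change (edgeR adjusted p 1), with a log2 change of -0.011 ± 0.25 at 60 h against 12 h. With the replicate number as a block it was called for any change (edgeR adjusted p 0.023), though the labels do not name the numbers as pairs. Timp4 CPM were 0.039, 0.148 and 0.131 at 12 h, 0.0451, 0.146 and 0.206 at 18 h and 0.124, 0.259 and 0.0957 at 24 h. Timp4 then stood at 0.195, 0.328 and 0.443 at 30 h, 0.25, 0.106 and 0.35 at 36 h and 0, 0.28 and 0.17 at 42 h. Later Timp4 values were 0.107, 0.424 and 0.0441 at 48 h, 0.276, 0.112 and 0.291 at 54 h and 0.143, 0.0802 and 0.134 at 60 h. Timp4, an inhibitor known from heart and muscle, thus held at most 0.443 CPM and was too low to test. As a share of the inhibitor sum per kilobase, Timp3 stood at 2.28% ± 0.135 (SD, n = 3) at 12 h and 7% ± 0.687 at 36 h. Timp1 made up 84.4% ± 4.01 of it at 12 h and 69.2% ± 5.6 at 24 h.

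**Figure D2:**
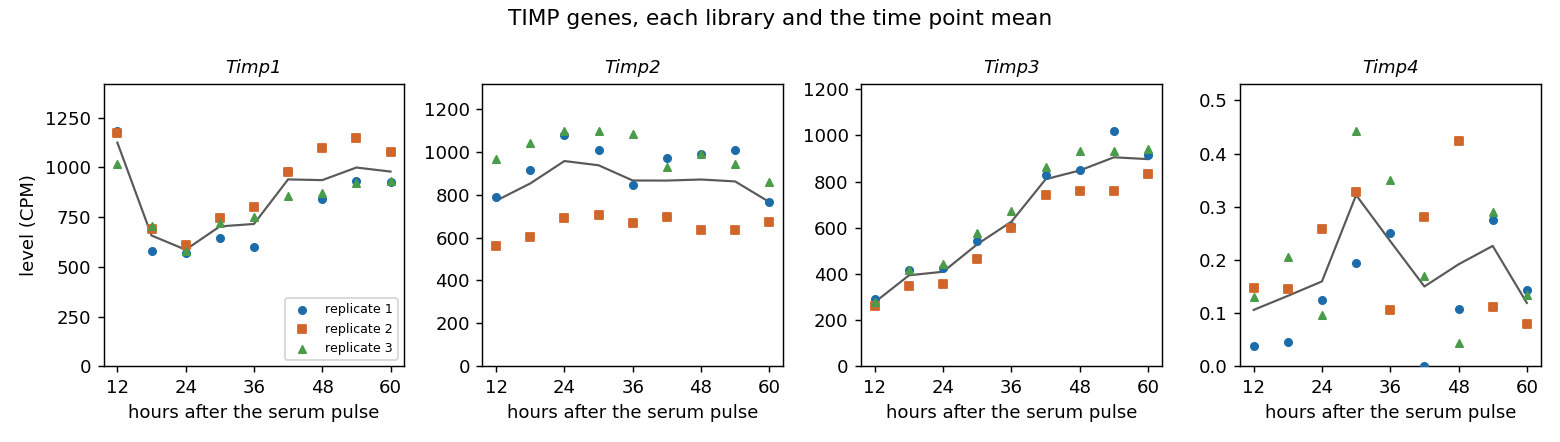
CPM of Timp1, Timp2, Timp3 and Timp4 in each library against hours after the serum pulse. Points are libraries and lines run through the means of 3. Each panel has its own axis, and Timp4 reaches at most 0.443 CPM. Timp3 runs from 261 to 293 CPM at 12 h to 833 to 941 at 60 h, Timp1 has its lowest mean at 24 h, and the Timp2 libraries numbered 2 lie under the others throughout.

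Among the metalloproteinases the membrane enzyme Mmp14 and its substrate Mmp2 were higher at 36 and 60 h than at 12 h, Mmp23 was higher at low levels, and Mmp9 and Mmp11 fell. Mmp14 (chr14:54431612-54445364, plus strand), also called MT1-MMP, cleaves collagen at the cell surface. Mmp14 CPM were 382, 369 and 411 at 12 h, 535, 508 and 559 at 18 h and 568, 559 and 633 at 24 h. Mmp14 then stood at 615, 592 and 672 at 30 h, 577, 573 and 623 at 36 h and 572, 547 and 606 at 42 h. Later Mmp14 values were 517, 518 and 585 at 48 h, 634, 558 and 576 at 54 h and 576, 524 and 543 at 60 h. Every library from 18 h on lay above all 3 of 12 h. In log2 the change was 0.61 ± 0.072 at 36 h and 0.50 ± 0.072 at 60 h, both against 12 h (edgeR adjusted p 1.4e-06 and 2.11e-05). Without the 12 h libraries Mmp14 was not called for any change (adjusted p 0.3).

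Mmp2 (chr8:92827291-92853420, plus strand), gelatinase A, is activated at the cell surface by Mmp14. Mmp2 CPM were 169, 151 and 186 at 12 h, 202, 197 and 225 at 18 h and 234, 209 and 256 at 24 h. Mmp2 then stood at 246, 228 and 258 at 30 h, 212, 204 and 239 at 36 h and 222, 197 and 222 at 42 h. Later Mmp2 values were 196, 200 and 234 at 48 h, 239, 194 and 221 at 54 h and 227, 208 and 214 at 60 h. Every 12 h library lay below every library of 18 to 60 h. On the log2 scale it changed by 0.37 ± 0.10 at 36 h and 0.36 ± 0.10 at 60 h against 12 h (edgeR adjusted p 0.00907 and 0.012). The 60 h call was lost without replicate 2 of 12 h or replicate 1 of 60 h (adjusted p 0.0959 and 0.068), and the 36 h call without replicate 2 of 12 h or replicate 3 of 36 h (adjusted p 0.0796 and 0.0762).

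Mmp9, gelatinase B (chr2:164940780-164955850, plus strand), had a mean under 1 CPM and is shown in full because of its fall, a choice made after its values were seen. Mmp9 CPM were 1.68, 1.53 and 2.44 at 12 h, 1.35, 0.634 and 1.44 at 18 h and 0.495, 0.983 and 0.813 at 24 h. Mmp9 then stood at 0.195, 0.263 and 0.394 at 30 h, 0.501, 0.212 and 0.525 at 36 h and 0.0906, 0.373 and 0.255 at 42 h. Later Mmp9 values were 0.534, 0.265 and 0.441 at 48 h, 0.221, 0.225 and 0.146 at 54 h and 0.0954, 0.2 and 0.223 at 60 h. In reads, the 12 h libraries held 43, 31 and 56 and those of 60 h held 2, 5 and 5. All 3 libraries of 12 h lay above all libraries of 24 h and later. The log2 change was -2.15 ± 0.36 at 36 h and -3.38 ± 0.41 at 60 h against 12 h (edgeR adjusted p 0.000123 and 2.03e-06). Mmp9 reached the filter level in every library of 12, 18 and 24 h. Later, replicates 1 and 3 of 36 h (10 and 12 reads) and replicate 1 of 48 h (10 reads) reached it too. Its being tested thus leaned on the early times but did not rest on them alone. It is also made by macrophages and neutrophils, and any part of such cells in its fall was not tested. Their summed markers, at 6.68 to 9.58 CPM, consisted mostly of Cd14 (mean 5.84 CPM), with 8 of 12 under 0.1 CPM.

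Mmp11 (chr10:75923222-75936496, minus strand), stromelysin 3, is processed inside the cell by furin. Mmp11 CPM were 110, 102 and 126 at 12 h, 99.9, 90.9 and 116 at 18 h and 82.6, 86.8 and 89.9 at 24 h. Mmp11 then stood at 77.7, 76.4 and 81.4 at 30 h, 70.3, 71.8 and 78.1 at 36 h and 75, 67.4 and 72.8 at 42 h. Later Mmp11 values were 68.1, 74.8 and 80.5 at 48 h, 75.4, 72.1 and 74.5 at 54 h and 86.7, 72 and 79.5 at 60 h. No library of 24 h or later overlapped those of 12 h. Its log2 change was -0.62 ± 0.09 at 36 h and -0.51 ± 0.089 at 60 h against 12 h (edgeR adjusted p 2.2e-05 and 0.00025). Its fall along the line was -0.52 ± 0.10 (adjusted p 0.000227) with all libraries and -0.35 without those of 12 h (adjusted p 0.0547). Opposite-strand exons of Chchd10, at a mean of 6.61 CPM, overlap 5.58% of its exon bases.

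Mmp23 (chr4:155650655-155653384, minus strand) is a small membrane-bound member of the family without a hemopexin domain. Mmp23 CPM were 1.13, 0.739 and 1.09 at 12 h, 1.67, 1.17 and 1.19 at 18 h and 2.48, 2.38 and 1.82 at 24 h. Mmp23 then stood at 2.77, 1.64 and 2.46 at 30 h, 2.91, 2.54 and 3.19 at 36 h and 2.17, 2.38 and 1.45 at 42 h. Later Mmp23 values were 2.35, 2.28 and 1.23 at 48 h, 1.44, 1.76 and 1.75 at 54 h and 2.24, 2.57 and 2.67 at 60 h. Its 12 h libraries, at 0.739 to 1.13 CPM, lay below all later ones. In log2 the change was 1.53 ± 0.25 at 36 h and 1.32 ± 0.25 at 60 h against 12 h (edgeR adjusted p 9.64e-05 and 0.000538). Without the 12 h libraries it was not called for any change (adjusted p 0.0632). Mmp19, a secreted enzyme of basement membrane turnover, ranged from 28.5 to 43.4 CPM and was higher at 60 h than at 12 h by 0.27 ± 0.082 (edgeR adjusted p 0.0254). That call was lost without any 1 of 5 libraries, all 3 of 12 h and replicates 1 and 3 of 60 h (adjusted p 0.0516 to 0.177). Opposite-strand exons of Tmem198b, at a mean of 28.1 CPM, overlap 22.3% of Mmp19 exon bases.

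The other tested metalloproteinases were not called in any contrast with all libraries. With the replicate number as a block, Mmp15 was called for any change (edgeR adjusted p 0.0343). The membrane enzymes Mmp15, Mmp16, Mmp17 and Mmp24 ranged over 42.4 to 85.6, 8.44 to 12.1, 0.413 to 1.38 and 0.0493 to 0.829 CPM. Mmp28, epilysin, ranged over 10.1 to 16.5 CPM, with a log2 change of -0.015 ± 0.18 at 60 h against 12 h. Mmp25, a leukocyte membrane enzyme, had 3 reads in all.

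In the ADAMTS family 8 of 14 tested genes were called higher at 60 h than at 12 h, beside 9.5% of all tested genes. Their changes ran from Adamts4 at 1.3-fold to Adamts12 at 3.05-fold. The family members known for cutting hyaluronan-binding proteoglycans are Adamts1, Adamts4, Adamts5, Adamts8, Adamts9, Adamts15 and Adamts20. Adamts1 (chr16:85793827-85803113, minus strand) cuts versican and aggrecan. Adamts1 CPM were 60, 56.4 and 58.4 at 12 h, 66.2, 68.6 and 62.1 at 18 h and 77.9, 74.7 and 76.9 at 24 h. Adamts1 then stood at 85, 79.4 and 80.3 at 30 h, 90.2, 87.9 and 92.8 at 36 h and 91.5, 91.8 and 92.2 at 42 h. Later Adamts1 values were 91.8, 91.1 and 93.7 at 48 h, 86.8, 85.1 and 87.9 at 54 h and 96.3, 96.1 and 94.9 at 60 h. Each 12 h library lay below every later one. On the log2 scale it changed by 0.63 ± 0.049 at 36 h and 0.72 ± 0.049 at 60 h against 12 h (edgeR adjusted p 2.09e-09 and 2.55e-10).

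Adamts4 (chr1:171250421-171260637, plus strand), aggrecanase 1, had the highest level per kilobase of the family. Adamts4 CPM were 142, 147 and 136 at 12 h, 172, 170 and 187 at 18 h and 183, 189 and 198 at 24 h. Adamts4 then stood at 211, 212 and 221 at 30 h, 201, 203 and 204 at 36 h and 159, 166 and 167 at 42 h. Later Adamts4 values were 151, 166 and 165 at 48 h, 191, 186 and 184 at 54 h and 182, 188 and 181 at 60 h. Means were lowest at 12 h and highest at 30 h, and the libraries of 42 and 48 h lay below those of 36 and 54 h with no overlap. The log2 change was 0.52 ± 0.052 at 36 h and 0.37 ± 0.052 at 60 h against 12 h (edgeR adjusted p 1.19e-07 and 1.22e-05). With all libraries it was not called for a 24 h rhythm (swing 0.23, adjusted p 1). Without those of 12 h the swing was 0.39 (adjusted p 0.000137), with a fall along the line of -0.33 (adjusted p 0.000291).

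Adamts5 (chr16:85856173-85901828, minus strand), aggrecanase 2, lies next to Adamts1 on chromosome 16. Adamts5 CPM were 82.8, 76.4 and 91.7 at 12 h, 105, 86 and 102 at 18 h and 111, 96.3 and 109 at 24 h. Adamts5 then stood at 108, 86.5 and 113 at 30 h, 111, 101 and 120 at 36 h and 111, 103 and 116 at 42 h. Later Adamts5 values were 128, 108 and 129 at 48 h, 126, 90.5 and 115 at 54 h and 117, 109 and 121 at 60 h. The library numbered 2 was the lowest at each time, and the 12 h and 60 h libraries did not overlap. Its log2 change was 0.40 ± 0.12 at 36 h and 0.47 ± 0.12 at 60 h against 12 h (edgeR adjusted p 0.0201 and 0.00646). The 60 h call was lost without replicate 2 of 12 h (adjusted p 0.0513), and the 36 h call without replicate 1 or 2 of 12 h or replicate 1 or 3 of 36 h (adjusted p 0.0603 to 0.118). The call for any change (adjusted p 0.0486) was lost in 22 of the 27 fits that leave out 1 library (adjusted p 0.0558 to 0.24).

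Adamts9 (chr6:92772699-92943492, minus strand) cuts versican and was read at a low level. Adamts9 CPM were 0.78, 0.887 and 1 at 12 h, 1.76, 1.41 and 1.34 at 18 h and 1.9, 1.55 and 1.48 at 24 h. Adamts9 then stood at 1.85, 1.12 and 1.43 at 30 h, 1.8, 1.64 and 1.62 at 36 h and 1.49, 1.26 and 1.32 at 42 h. Later Adamts9 values were 1.34, 1.64 and 1.5 at 48 h, 1.99, 1.2 and 1.46 at 54 h and 0.859, 1.32 and 1.07 at 60 h. The 12 h libraries lay below all others except replicate 1 of 60 h. In log2 the change was 0.92 ± 0.21 at 36 h and 0.30 ± 0.22 at 60 h against 12 h (edgeR adjusted p 0.0037 and 0.477). The call for any change (adjusted p 0.0353) was lost in 8 of the 27 fits that leave out 1 library, those without any library of 12 h, replicate 1 of 24 h, replicate 1 or 2 of 36 h or replicate 1 or 3 of 60 h (adjusted p 0.0529 to 0.154), and with DESeq2 (adjusted p 0.0838).

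Adamts15 (chr9:30899155-30922452, minus strand), also a versican-cutting enzyme, was the only family member called lower along the line. Adamts15 CPM were 5.3, 6.65 and 6.1 at 12 h, 5.27, 6.09 and 4.64 at 18 h and 6.73, 6.31 and 7.56 at 24 h. Adamts15 then stood at 4.67, 4.86 and 3.54 at 30 h, 5.31, 6.19 and 4.15 at 36 h and 4.57, 4.76 and 3.91 at 42 h. Later Adamts15 values were 4.43, 5.3 and 5.33 at 48 h, 3.32, 4.42 and 4.27 at 54 h and 4.34, 4.81 and 4.36 at 60 h. The 24 h libraries were the highest group and those of 54 h the lowest, and the 12 h and 60 h libraries did not overlap. The log2 trend was -0.49 ± 0.14 (edgeR adjusted p 0.0156), and the change at 60 h against 12 h was -0.41 ± 0.15 (adjusted p 0.0736). Without replicate 3 of 36 h the latter was called (adjusted p 0.0471), and without the 12 h libraries the trend was -0.39 (adjusted p 0.237). Adamts8 ranged from 0.423 to 1.54 CPM and was not called, and Adamts20 had 47 reads.

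Adamts2, Adamts3 and Adamts14 remove the amino-terminal propeptide of fibrillar procollagens. Adamts2 (chr11:50602084-50807573, plus strand) rose. Adamts2 CPM were 82, 73.7 and 96.3 at 12 h, 78.9, 79.9 and 94.6 at 18 h and 81.3, 80.6 and 94.3 at 24 h. Adamts2 then stood at 113, 99.4 and 111 at 30 h, 106, 106 and 124 at 36 h and 115, 107 and 123 at 42 h. Later Adamts2 values were 114, 106 and 133 at 48 h, 138, 112 and 115 at 54 h and 134, 109 and 123 at 60 h. Values of 12, 18 and 24 h lay between 73.7 and 96.3 CPM and those from 30 h on between 99.4 and 138, with no overlap. On the log2 scale it changed by 0.54 ± 0.11 at 60 h against 12 h (edgeR adjusted p 0.00145). At 36 h against 12 h it was 0.42 ± 0.11 (adjusted p 0.0128), a call lost without replicate 1 or 2 of 12 h or replicate 3 of 36 h (adjusted p 0.0549 to 0.0967). Adamts14, at 108 to 144 CPM, had a log2 change of -0.11 ± 0.11 at 60 h against 12 h (edgeR adjusted p 0.629). Adamts3 had 10 reads.

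Adamts7 and Adamts12 are a pair with mucin-like domains that cut cartilage oligomeric matrix protein. Adamts12 (chr15:11064790-11349231, plus strand) had the largest rise of the tested ADAMTS genes at 60 h against 12 h. Adamts12 CPM were 22.2, 20.9 and 25.3 at 12 h, 32.5, 28.4 and 33.1 at 18 h and 44.8, 36.8 and 45.6 at 24 h. Adamts12 then stood at 61.5, 48.3 and 62.8 at 30 h, 61.9, 50.3 and 65.3 at 36 h and 64.8, 57 and 67 at 42 h. Later Adamts12 values were 68.3, 51.3 and 76.6 at 48 h, 92.2, 55.7 and 72.4 at 54 h and 75.7, 62 and 71.1 at 60 h. The library numbered 2 was the lowest at each time, yet each 12 h library lay below every library of every later time. The log2 change was 1.37 ± 0.17 at 36 h and 1.61 ± 0.17 at 60 h against 12 h (edgeR adjusted p 1.71e-06 and 1.85e-07), or 3.05-fold at 60 h. Adamts7 ranged from 71.1 to 111 CPM with a log2 change of 0.075 ± 0.12 at 60 h against 12 h (edgeR adjusted p 0.759). Without the 12 h libraries its trend was -0.37 (adjusted p 0.0277), against -0.17 with them (adjusted p 0.243).

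Adamts16 (chr13:70727802-70841811, minus strand) has a still poorly known set of substrates, with fibronectin among them. Adamts16 CPM were 31.1, 28.6 and 35.8 at 12 h, 50, 39.4 and 54.5 at 18 h and 71.2, 51.3 and 79.4 at 24 h. Adamts16 then stood at 72.2, 46.3 and 66 at 30 h, 68.2, 53.2 and 73.7 at 36 h and 68.1, 49.3 and 61.8 at 42 h. Later Adamts16 values were 68, 54.2 and 81.2 at 48 h, 70.5, 48.9 and 65.6 at 54 h and 82.7, 62.6 and 80 at 60 h. Its 12 h libraries lay below all others. Its log2 change was 1.03 ± 0.20 at 36 h and 1.24 ± 0.20 at 60 h against 12 h (edgeR adjusted p 0.000661 and 8.77e-05). Its rise along the line was 0.78 ± 0.19 (adjusted p 0.00371), and 0.37 without the 12 h libraries (adjusted p 0.308). Adamts18, its closest relative, had 9 reads.

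Adamts6, Adamts10, Adamts17 and Adamts19 include the family members tied to fibrillin microfibrils. Adamts17 (chr7:66839735-67153171, plus strand) rose and then fell. Adamts17 CPM were 1.75, 1.38 and 1.61 at 12 h, 3.38, 2.73 and 3.3 at 18 h and 6.28, 4.45 and 6.27 at 24 h. Adamts17 then stood at 6.28, 5.12 and 6.2 at 30 h, 6.06, 6.09 and 6.6 at 36 h and 4.53, 3.27 and 4.68 at 42 h. Later Adamts17 values were 4.59, 3.71 and 4.98 at 48 h, 3.87, 3.03 and 3.44 at 54 h and 3.77, 3.21 and 3.25 at 60 h. Its 12 h libraries were the lowest, those of 24 to 36 h stood at 4.45 to 6.6 CPM and those of 54 and 60 h at 3.03 to 3.87. In log2 the change was 1.97 ± 0.17 at 36 h against 12 h and -0.88 ± 0.16 at 60 h against 36 h (edgeR adjusted p 1.22e-08 and 0.00509). At 60 h it was still above 12 h by 1.09 ± 0.18 (adjusted p 9.28e-05).

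Adamts10 (chr17:33524204-33553782, plus strand) changed less. Adamts10 CPM were 14.3, 13.3 and 16.4 at 12 h, 16.9, 17.2 and 17.9 at 18 h and 17.4, 21.6 and 19.3 at 24 h. Adamts10 then stood at 17.2, 18.4 and 18.9 at 30 h, 21.7, 21.2 and 21.8 at 36 h and 19.3, 20.5 and 21.3 at 42 h. Later Adamts10 values were 19.6, 19.6 and 19.3 at 48 h, 20.3, 22.1 and 21.5 at 54 h and 20.7, 19.4 and 20 at 60 h. Every 12 h library lay below every later one, and the 12 h and 36 h libraries did not overlap. On the log2 scale it changed by 0.56 ± 0.082 at 36 h and 0.45 ± 0.081 at 60 h against 12 h (edgeR adjusted p 2.43e-05 and 0.000318). Its rise along the line, 0.39 ± 0.087, was 0.20 without the 12 h libraries (adjusted p 0.218). Adamts6 ranged from 80.1 to 102 CPM and had a log2 change of -0.041 ± 0.068 at 60 h against 12 h (edgeR adjusted p 0.775). Adamts19 had no read, and neither had Adamts13, the protease of von Willebrand factor.

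**Figure D3:**
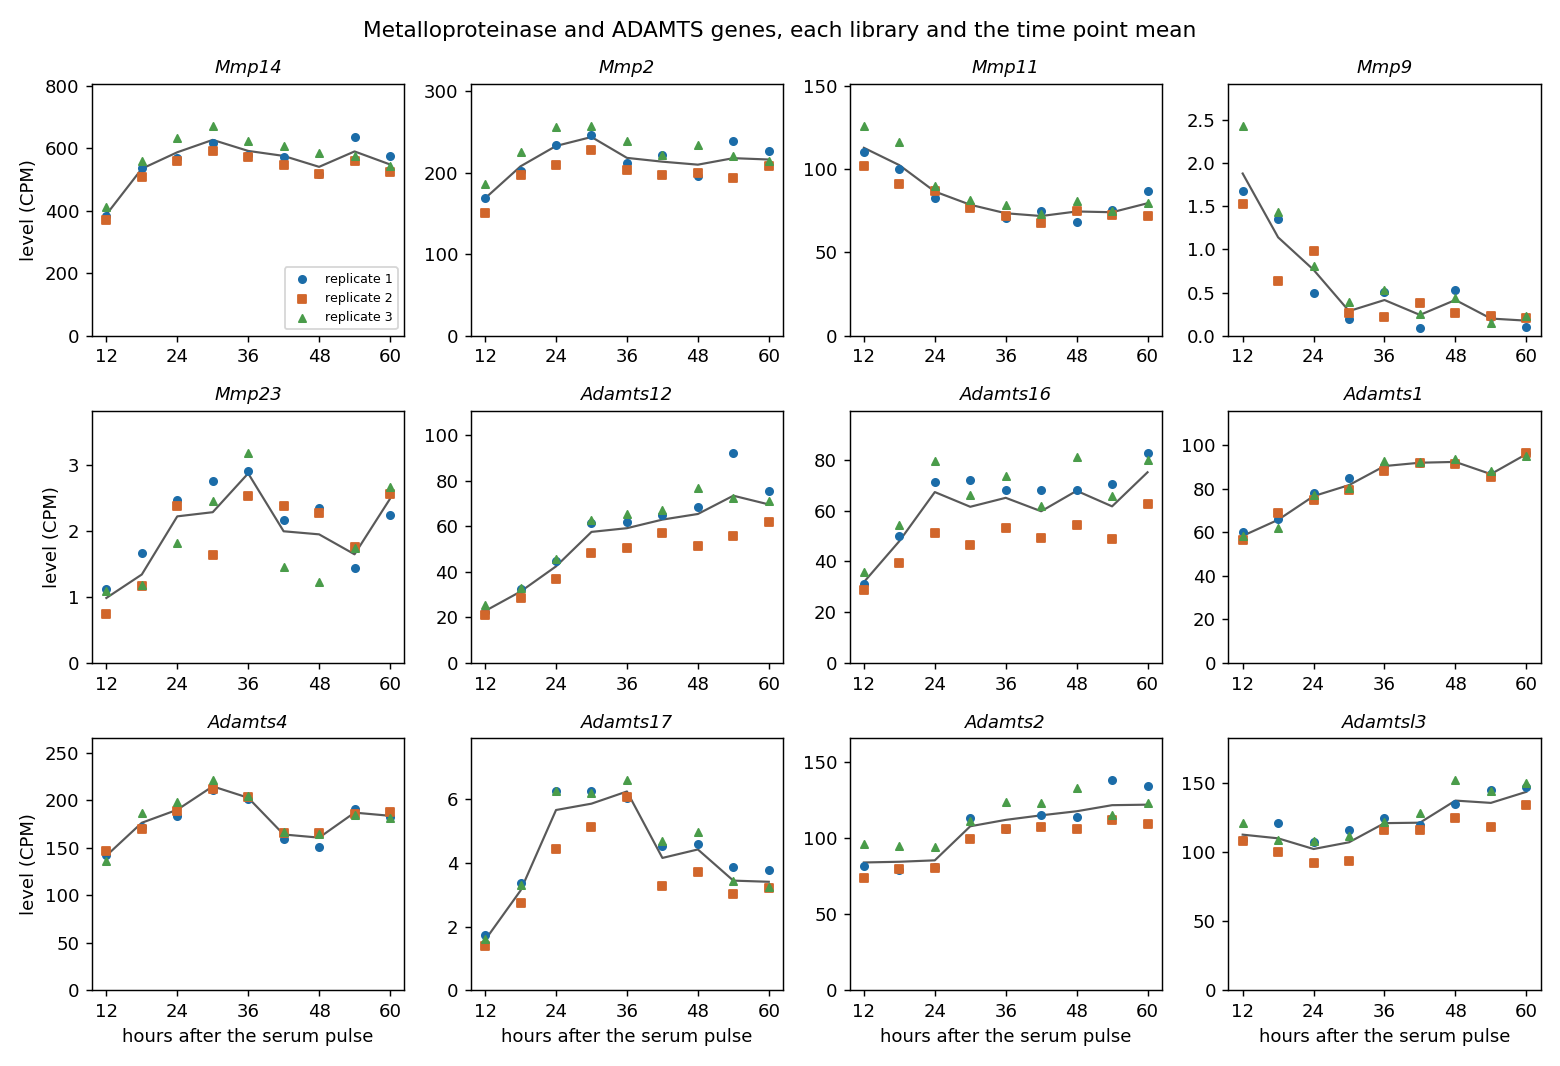
CPM of 11 proteases and Adamtsl3 in each library against hours after the serum pulse, with points by replicate number and lines through the means of 3. Most panels have their lowest mean at 12 h, Mmp9 and Mmp11 have their highest there, and Adamts17 peaks at 36 h with a mean of 6.25 CPM.

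The ADAMTS-like proteins sit on fibrillin microfibrils, and 1 of the 5, Adamtsl3 (chr7:82335694-82614450, plus strand), was called for any change. That is 20% of them, close to the 18.5% of all tested genes. Adamtsl3 CPM were 109, 108 and 121 at 12 h, 121, 100 and 109 at 18 h and 107, 91.8 and 108 at 24 h. Adamtsl3 then stood at 116, 93.4 and 112 at 30 h, 125, 116 and 122 at 36 h and 120, 116 and 128 at 42 h. Later Adamtsl3 values were 135, 125 and 152 at 48 h, 145, 118 and 144 at 54 h and 147, 134 and 150 at 60 h. The 24 h mean was the lowest at 102 CPM and the 60 h mean the highest at 143 CPM. The log2 trend was 0.46 ± 0.079 (edgeR adjusted p 0.000107). The change at 60 h against 12 h was 0.35 ± 0.10 (adjusted p 0.0151), and without replicate 1 or 2 of 12 h or replicate 1 or 3 of 60 h it was not called (adjusted p 0.0688 to 0.081). Adamtsl1, which ranged from 27.2 to 52 CPM, also rose along the line, by 0.45 ± 0.11 (edgeR adjusted p 0.00298). At 60 h against 12 h it had 0.43 ± 0.15 (adjusted p 0.0519), a change that was called without replicate 3 of 12 h, replicate 2 of 18 h, replicate 2 or 3 of 36 h or replicate 2 of 54 h (adjusted p 0.0229 to 0.0469). Adamtsl2, Adamtsl4 and Adamtsl5 ranged over 34.8 to 54.9, 9.17 to 20.7 and 94.4 to 144 CPM and were not called. With the replicate number as a block, Adamtsl2 and Adamtsl5 were called for any change (edgeR adjusted p 0.0012 and 0.00764).

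Set side by side, most of the called members moved between 12 and 36 h and little between 36 and 60 h, as the plot of the 2 days shows. Both axes use the 36 h libraries, which ties them. Of all tested genes 16% were called at 36 h against 12 h and 0.859% at 60 h against 36 h. The shares of the 34 members were 47.1% and 5.88%, so this timing is not particular to them. Adamts12 had 1.37 ± 0.17 in the first 24 h and 0.23 ± 0.16 in the next, and the difference between them was called (edgeR adjusted p 0.0102). Adamts16 had 1.03 ± 0.20 and 0.21 ± 0.20, and there the difference itself was not called (-0.82 ± 0.34, edgeR adjusted p 0.185). Mmp14 had 0.61 ± 0.072 and then -0.11 ± 0.072 (edgeR adjusted p 0.883).

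**Figure D4:**
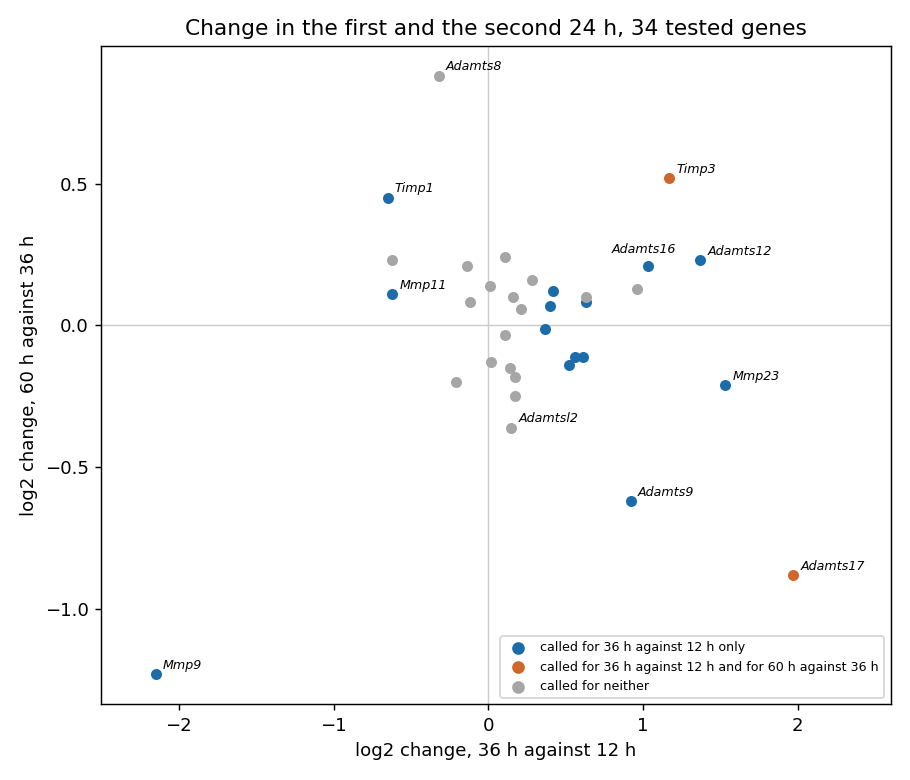
Log2 change from 12 to 36 h (horizontal) against that from 36 to 60 h (vertical) for the 34 tested genes, coloured by which was called; both use the 36 h libraries. Timp3 lies at 1.17 and 0.52, Adamts17 at 1.97 and -0.88, and genes in the crowded middle are left without a name.

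For a 24 h rhythm, 0 of the 34 members were called by edgeR (background 0.0552%), and by DESeq2 and limma-voom also 0, with 0 members at an unadjusted p under 0.05. The widest fitted swing, from trough to peak in log2, was 0.73 for Mmp10. Adamts17 had 0.54 and Timp1 0.35 (edgeR adjusted p 1 for each).

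Genes that act with these proteases were read from lists by role, with the trend from 12 to 60 h in log2 and a median over all tested genes of -0.014. Of all tested genes 10.7% rose and 8.72% fell along it, and each list count is to be read beside those shares. In the plasminogen system, which activates several MMP precursors, Serpine2, an inhibitor of plasminogen activators, rose by 0.88 ± 0.076, Plat, tissue plasminogen activator, by 0.38 ± 0.11, and Serpinb2, another such inhibitor, had -1.20 ± 0.29 (edgeR adjusted p 2.72e-09, 0.0117 and 0.00382). Of 14 tested activators and cell-surface regulators of MMPs 6 rose and the others did not pass the test (median 0.24). Among them were the secreted thrombospondins Thbs2 (0.70 ± 0.10) and Thbs1 (0.84 ± 0.15), the tetraspanin Cd9 (0.43 ± 0.089) and the integrin chain Itgav (0.23 ± 0.063; edgeR adjusted p 9.26e-06, 0.000155, 0.000859 and 0.00904).

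The related ADAM proteases, which shed membrane proteins, gave 2 that rose and 1 that fell of 10 tested (median -0.012). Over all tested genes 10.7% rose and 8.72% fell. Adam12, known from muscle fusion, rose by 1.28 ± 0.18 and Adam23 by 0.87 ± 0.19, and Adam22 had -0.64 ± 0.18 (edgeR adjusted p 9.26e-06, 0.00163 and 0.0126). Of 4 tested genes of procollagen processing other than the Adamts genes 3 rose (median 0.36): Tll1 by 1.56 ± 0.16, the procollagen C-proteinase Bmp1 by 0.29 ± 0.058 and its enhancer Pcolce by 0.43 ± 0.13 (edgeR adjusted p 6.82e-08, 0.000522 and 0.0232). Of the hyalectans, link proteins and hyaluronan synthases 4 were tested, Has2 rose by 0.80 ± 0.10 and Has1 fell by 0.35 (edgeR adjusted p 7.75e-07 and 0.0115; list median -0.20). Versican, Vcan, the substrate of several ADAMTS enzymes, had a mean of 693 CPM and a trend of -0.33 ± 0.12 that missed the threshold (adjusted p 0.0541), while aggrecan, Acan, had 2 reads.

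Of 11 tested partners of ADAMTS-like proteins on fibrillin microfibrils 5 rose (median 0.22), led by Mfap5 (1.19 ± 0.14), Efemp2 (0.60 ± 0.079), Eln (elastin, 3.32 ± 0.50, at a mean of 0.481 CPM) and Mfap2 (1.52 ± 0.29; edgeR adjusted p 7.86e-07, 2.58e-06, 2.04e-05 and 0.000351). Of 9 cathepsins and cystatins 3 rose (median 0.10): Cst3 by 0.78 ± 0.14, Ctsz by 0.25 ± 0.051 and Ctsd by 0.17 ± 0.052 (edgeR adjusted p 0.00017, 0.000898 and 0.018). Of 15 AP-1 and ETS family factors 3 rose (median 0.15): Etv4 by 0.62 ± 0.14, Junb by 0.44 ± 0.11 and Atf3 by 0.54 ± 0.16 (edgeR adjusted p 0.00237, 0.00485 and 0.0167). Beside these counts, 10.7% of all tested genes rose along the line.

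Other markers moved over the same hours. Of 13 tested myotube markers 3 rose and 3 fell along the line, and 2 of 8 proliferation markers rose along it. Of all tested genes 10.7% rose and 8.72% fell. At 60 h against 12 h 5 of the 8 proliferation markers and 5 of 6 tested smooth muscle markers were called higher (background 9.5%). Of the smooth muscle markers 4 rose along the line, and their summed level ran from a mean of 3540 CPM at 12 h (3309 to 3685) to 5485 at 60 h (5098 to 5905), with Myh11 and Myocd at means of 0.188 and 0.1 CPM. Chondrocyte and osteoblast markers summed to 20.4 to 46.8 CPM and adipocyte markers to 1.96 to 4.69 CPM. The part of these shifts in the changes of the proteases and inhibitors was not tested. The library numbered 2 was the lowest of the 3 at 8 or 9 times for 14 of the 34 tested members, and at all 9 for Timp2, Timp3, Mmp15, Adamts5, Adamts7, Adamts12, Adamts16, Adamtsl1 and Adamtsl3. That count was not made for all tested genes, so it is not shown to be a trait of the members. Over all tested genes, libraries with the same number also deviated together (median r 0.331). Without the 9 libraries numbered 2, 17 members were called for any change (Adamts9 was lost, adjusted p 0.136), an alternative chosen after seeing the data.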

How the data were processed

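The authors deposited raw counts, whole reads per Ensembl gene, for 27 libraries of rRNA-depleted, stranded total RNA, per the labels' protocols. The submitters' processing notes name Trim Galore 0.4.0, cutadapt 1.9.1, featureCounts and the build mm10. The aligner, annotation and strand setting were not given in the sources used here, so reads of overlapping genes on opposite strands may not have been separated.

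Symbols, positions and exon lengths came from GENCODE M21, which matched 20327 of 20446 genes, and promoter windows from RefSeq (GRCm38.p6). Libraries were grouped by the time in their titles. Genes passed filterByExpr with a minimum count of 10 (12687 tested), and scaling was by TMM (factors 0.979 to 1.03). The tests were edgeR 4.0.16 quasi-likelihood F tests in R 4.3.3, and the threshold was a Benjamini-Hochberg adjusted p of 0.05, taken over every gene tested. Time was a factor for change of any shape and for contrasts, while the trend (per 48 h) and the rhythm (cosine and sine of 24 h) shared 1 model. The biological coefficient of variation was 11.8%. The functions were tested on simulated data. Depth sets the precision, most of all for genes under 1 CPM.

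Values in every library are given for the TIMPs, the 6 genes highest per kilobase and up to 20 members called for any change with a mean of at least 1 CPM. Up to 4 genes with the smallest p along the trend are named per list. Some results among the listed and overlapping genes are not reported here. The members and lists were chosen with earlier results of these data known. Alternatives were DESeq2 1.42.0, limma-voom (limma 3.58.1), median of ratios scaling, other filters, a threshold of 0.01, other periods, a quadratic term, no 24 h terms, a replicate block, each library left out and the 12 h libraries left out. Tables were read with pandas 2.3.3 and plotted with matplotlib 3.10.9.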

Additional observations from a re-analysis of the deposited data

Results flagged for a closer look

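For 11 members the log2 change in the second 24 h (36 to 60 h) differed from that in the first (12 to 36 h) by a test of the difference itself, edgeR's contrast in the fit with time as a factor, with adjusted p over all genes. The same test called 858 of 12687 genes (6.76%). The second 24 h minus the first gave 1.10 for Timp1 and 0.73 for Mmp11, both lower at 36 h than at 12 h. The difference was -0.66 for Timp3, whose rise was larger in the first 24 h. Among the metalloproteinases it was -0.72 for Mmp14 and -1.74 for Mmp23. In the ADAMTS family it was -0.55 for Adamts1, -0.66 for Adamts4, -1.55 for Adamts9, -0.67 for Adamts10, -1.14 for Adamts12 and -2.85 for Adamts17. All 11 rest on the 12 h libraries, which held the lowest mean of 9 of these genes and the highest of the other 2. They rest on the 36 h libraries as well, which enter both changes. Mmp23, Adamts9, Adamts10 and Adamts17 had their highest mean at 36 h. This test of the difference was not repeated under the alternatives. The adjusted p ran from 2.6e-07 for Adamts17 to 0.0365 for Timp3.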

How the results depend on the processing

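Over the alternatives, 60 h against 12 h gave 13 to 20 members called in place of 16, 36 h against 12 h gave 14 to 18 in place of 16, and the trend gave 10 to 13 in place of 12. The 10 were those of the fit without the 12 h libraries, and 7 of them were among the 12. There the trend calls of Mmp11, Adamts5 (0.31, edgeR adjusted p 0.0778), Adamts10, Adamts15 and Adamts16 were lost. Timp1, Adamts4 and Adamts7 were called instead. Without the 12 h libraries, 11 members were called for any change in place of 18, and 1 (Adamts4) for a 24 h rhythm in place of 0. For 60 h against 36 h, 1 member was called at adjusted p under 0.01 and 5 with the replicate block, in place of 2. Leaving out 1 library at a time gave 15 to 19 members for any change, 12 to 18 for 60 h against 12 h, 13 to 16 for 36 h against 12 h, 1 to 3 for 60 h against 36 h, 12 to 12 for the trend and 0 to 0 for the rhythm. With the replicate number as a block 26 were called for any change in place of 18: the 18 and Timp2 (adjusted p 0.023), Mmp15 (0.0343), Mmp19 (0.0152), Adamts6 (0.0453), Adamts7 (0.00106), Adamtsl1 (0.000126), Adamtsl2 (0.0012) and Adamtsl5 (0.00764). Samples with the same number deviated together in most cases (median r 0.331 over 108 pairs, 91 of them over 0.1, lowest -0.0558; median -0.19 between other numbers), and 26 of 27 libraries lay closest on average to their own number, a hint from the data and not from the design. No value called with all libraries changed sign, while the Adamts4 trend, 0.039 and not called, was -0.33 and called without the 12 h libraries. The cause of these changes was not tested. Depth limits the 5 tested members under 1 CPM and the 17 not tested.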
